A study of Rattus norvegicus with 6 samples.

Results

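Keratins 7, 8, 18 and 19, claudins 1, 3, 4 and 7 and occludin are the filament and tight junction genes by which simple epithelium is commonly recognised. They were followed here in the ovaries of 3 overfed and 3 lean rat pools. Their members were chosen by name, as every probe set that the platform annotation maps only to one of these 9 genes. This gave 12 probe sets of the 31042 tested, with 3 for Cldn1, 2 for Ocln and 1 for each of the other genes. Female rats were fed a liquid diet by total enteral nutrition for 28 days, at 220 kcal (overfed) or 155 kcal (lean) per kg of metabolic body weight. All were mated with lean males, and the ovaries of both groups were frozen on day 4.5 post coitum. One array was made from each pool, and the labels give pools 1 to 3 in each group. The labels used here state no strain, age or number of animals in a pool, so tests measure the spread between pools.

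Keratins of simple epithelium work as obligate pairs of a type II chain (Krt7, Krt8) and a type I chain (Krt18, Krt19), which form filaments anchored at desmosomes. Claudins and occludin are membrane proteins with paired extracellular loops that seal neighbouring epithelial cells at tight junctions. Cldn3 and Cldn4 are bound by a bacterial enterotoxin, and Cldn7 is known to associate with the adhesion molecule Epcam. In the rodent ovary and its surroundings such genes are known from the surface epithelium, the rete and the oviduct, and Krt8 and Krt18 are known from granulosa cells too. Foxj1 is the transcription factor of motile cilia, and marks the ciliated cells of the oviduct. In whole-organ RNA, fewer cells of a type and less RNA per cell cannot be told apart. Because the deposited values are centred on each probe set's own median, no level of an epithelial or ovarian marker is known, and the labelled tissue could not be checked against its markers by level.

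Promoters of members whose values varied together across pools are printed for Krt8 and Krt18, which are partners in one filament, and for Cldn3 and Cldn7. The RefSeq table held a promoter for 6 of the 9 genes, each running from 250 bases before to 50 bases after the gene's start. Capitals mark the E-box CACCTG on either strand, a sequence that repressors of the Snail and Zeb families are known to bind at epithelial genes.
Krt8 (rat build GRCr8, chr7:135010290-135010589, minus strand): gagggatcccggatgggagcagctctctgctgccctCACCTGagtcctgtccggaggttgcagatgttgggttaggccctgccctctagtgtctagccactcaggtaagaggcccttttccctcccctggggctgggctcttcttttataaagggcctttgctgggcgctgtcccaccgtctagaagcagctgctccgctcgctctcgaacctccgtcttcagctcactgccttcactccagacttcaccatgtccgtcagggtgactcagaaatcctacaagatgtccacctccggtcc
Krt18 (rat build GRCr8, chr7:135035918-135036217, plus strand): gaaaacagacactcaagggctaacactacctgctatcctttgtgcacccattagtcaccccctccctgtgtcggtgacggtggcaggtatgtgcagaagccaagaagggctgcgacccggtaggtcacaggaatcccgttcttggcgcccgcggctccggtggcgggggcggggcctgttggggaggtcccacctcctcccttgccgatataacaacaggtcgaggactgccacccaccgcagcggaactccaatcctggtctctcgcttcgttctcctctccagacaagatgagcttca
Cldn3 (rat build GRCr8, chr12:27346498-27346797, minus strand): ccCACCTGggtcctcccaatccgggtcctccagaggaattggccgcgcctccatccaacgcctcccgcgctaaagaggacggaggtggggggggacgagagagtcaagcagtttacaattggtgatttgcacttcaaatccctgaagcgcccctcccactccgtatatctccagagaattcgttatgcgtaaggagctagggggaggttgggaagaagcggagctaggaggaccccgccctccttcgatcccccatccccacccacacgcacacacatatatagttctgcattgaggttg
Cldn7 (rat build GRCr8, chr10:55188420-55188719, plus strand): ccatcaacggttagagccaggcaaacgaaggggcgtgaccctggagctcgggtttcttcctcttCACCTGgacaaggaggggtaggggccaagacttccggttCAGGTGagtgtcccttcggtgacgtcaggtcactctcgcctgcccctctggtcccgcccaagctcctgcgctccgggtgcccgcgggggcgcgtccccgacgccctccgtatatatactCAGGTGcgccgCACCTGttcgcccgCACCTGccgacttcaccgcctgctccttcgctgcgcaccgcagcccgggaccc
The E-box was found once in Krt8, once in Cldn3 and 5 times in Cldn7. Ocln held 2 copies, whereas Krt18 and Cldn1 held 0 in this window. At least 1 copy stood in 18.8% of all 33469 RefSeq promoters, and 0.012% held 5 or more. The TATAAA motif on either strand was in 1 of the 6 promoters, that of Krt8, against 14.2% of all promoters. A match describes letters only, and binding was not measured in these samples.

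Values are given on the log2 scale relative to each probe set's median over the 6 pools, and differences are overfed minus lean. Most of the 12 probe sets were lower on average in overfed ovaries, but no member passed the test. The median difference over the 12 was -0.50 on the log2 scale, against 0.015 over all tested probe sets. Of the 12, 11 had a lower mean in overfed ovaries, and 45.4% of all probe sets did. In 5 of them, Krt8, Krt18, Krt19, Cldn3 and Cldn4, the difference was at least 1.5-fold, as it was downward in 1.32% of all probe sets. At a limma adjusted p under 0.05 there were 0 members among 0 probe sets in all (0%), and the smallest adjusted p of a member was 0.703 in limma. At an unadjusted limma p under 0.05 there were 2 members, both lower in overfed ovaries, where 3.36% of all probe sets passed in that direction and 6.67% in either. The groups did not overlap in 1 member, Krt19, against 5.33% of all probe sets with overfed below lean.

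All 4 keratins had a lower mean in overfed ovaries, with differences of -0.80 to -0.46 on the log2 scale. Krt19, the type I keratin of ducts and simple epithelia, had values of -0.03, -0.04 and -0.23 in overfed pools 1 to 3, against 0.80, 0.03 and 1.27 in lean pools 1 to 3. All overfed pools lay below all lean pools, with lean pool 2 just above overfed pools 1 and 2. The Krt19 difference was -0.80 (SE 0.28, 95% interval -1.47 to -0.13, 0.57-fold), with a limma unadjusted p of 0.0257 and an adjusted p of 0.703. The exact two-sided permutation test gave p = 0.1 for Krt19, the smallest that 3 against 3 pools allow. Without lean pool 3 the Krt19 difference was -0.52.

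Krt18, the type I partner of Krt8, had -0.20, 0.15 and -0.68 in overfed pools 1 to 3, against 0.80, -0.15 and 0.76 in lean pools 1 to 3. Its groups overlapped, because lean pool 2 lay below overfed pool 2. The Krt18 difference was -0.72 (SE 0.30, unadjusted p = 0.0488, adjusted p = 0.748 in limma). Krt8, the type II chain of that pair, had 0.03, -0.03 and -0.79 in overfed pools 1 to 3, against 0.47, -0.09 and 0.68 in lean pools 1 to 3. The difference of Krt8 was -0.62 (SE 0.27, 95% interval -1.26 to 0.027, adjusted p = 0.762 in limma). Krt7, a type II keratin of ductal and Mullerian epithelia, had 0.32, -0.32 and -0.78 in overfed pools 1 to 3, against 0.47, -0.37 and 0.50 in lean pools 1 to 3. Lean pool 2 was below overfed pools 1 and 2 in Krt7, and the difference of -0.46 (SE 0.33) had an adjusted p of 0.85 in limma. The keratin differences moved with single pools. Leaving out overfed pool 3 gave -0.20 for Krt7 and -0.35 for Krt8, and leaving out overfed pool 1 or lean pool 2 gave -0.75 for Krt7.

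**Figure D1:**
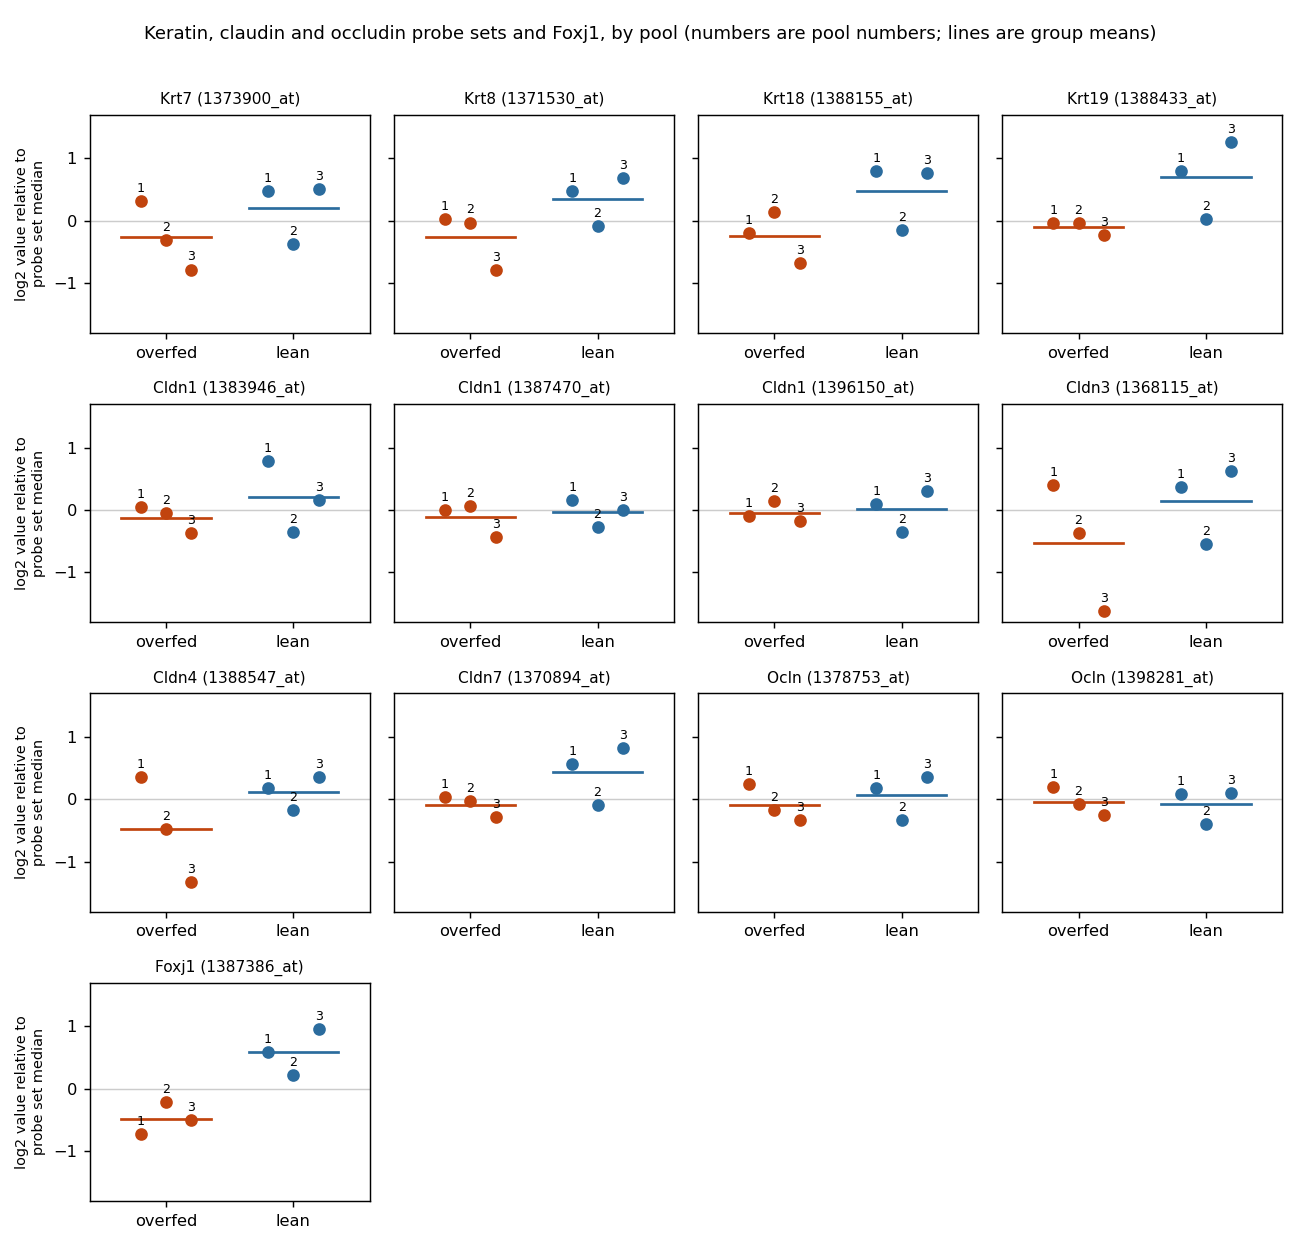
Log2 value relative to the probe set's own median over 6 pools (vertical axis) for the 12 keratin, claudin and occludin probe sets and Foxj1, with overfed pools left and lean pools right, the pool number above each point and a line at each group mean (n = 3). Overfed pool 3 and lean pool 2 are the lowest of their groups in all 12 panels of the members, and only Krt19 and Foxj1 have groups that do not overlap.

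The claudins split by how far apart the overfed pools lay. Cldn3, a sealing claudin, had 0.40, -0.36 and -1.61 in overfed pools 1 to 3, against 0.36, -0.55 and 0.62 in lean pools 1 to 3. Cldn4, its neighbour on chromosome 12 with 0 protein-coding genes annotated between them, had 0.36, -0.47 and -1.32 in overfed pools 1 to 3, against 0.18, -0.18 and 0.36 in lean pools 1 to 3. In both genes overfed pool 3 was far below the other 5 pools, while overfed pool 1 stood beside the highest lean pools. The spread over pools was largest in Cldn3, with an overfed mean of -0.52 ± 1.02 and a lean mean of 0.14 ± 0.61 (SD, n = 3 each). The differences of -0.67 for Cldn3 (SE 0.52, adjusted p = 0.86) and -0.60 for Cldn4 (SE 0.39, adjusted p = 0.842) did not pass limma's test. Without overfed pool 3 they were -0.12 and -0.18, and without overfed pool 1 they were -1.13 and -1.01. That of Cldn3 was -0.43 without lean pool 3 and -1.02 without lean pool 2.

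Cldn7 resembled the keratins more than the other claudins. It had 0.03, -0.03 and -0.29 in overfed pools 1 to 3, against 0.56, -0.09 and 0.83 in lean pools 1 to 3. The overfed pools of Cldn7 lay close together, and lean pool 2 fell among them. Its difference was -0.53 (SE 0.23, 95% interval -1.07 to 0.01, adjusted p = 0.751 in limma), and -0.33 without lean pool 3. Cldn1, a claudin of many epithelia including stratified ones, differed by -0.08, -0.07 and -0.33 in its probe sets 1387470_at, 1396150_at and 1383946_at. The first 2 of these changed sign when 1 pool was left out, and probe set 1383946_at stood highest in lean pool 1 at 0.79. Dropping overfed pool 3 gave a difference of -0.20, dropping lean pool 1 gave -0.03 and dropping lean pool 2 gave -0.60. Occludin, the MARVEL-domain protein of the tight junction strand, differed by 0.03 in probe set 1398281_at and -0.16 in probe set 1378753_at, with limma adjusted p-values of 0.986 and 0.928. The 95% interval of 1398281_at ran from -0.38 to 0.43, so a difference of the size seen in Krt19 lay outside it for that probe set. With 1 pool left out it ran from -0.14 without lean pool 2 to 0.13 without overfed pool 3, and that of 1378753_at from -0.36 without lean pool 2 to -0.02 without lean pool 3.

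**Figure D2:**
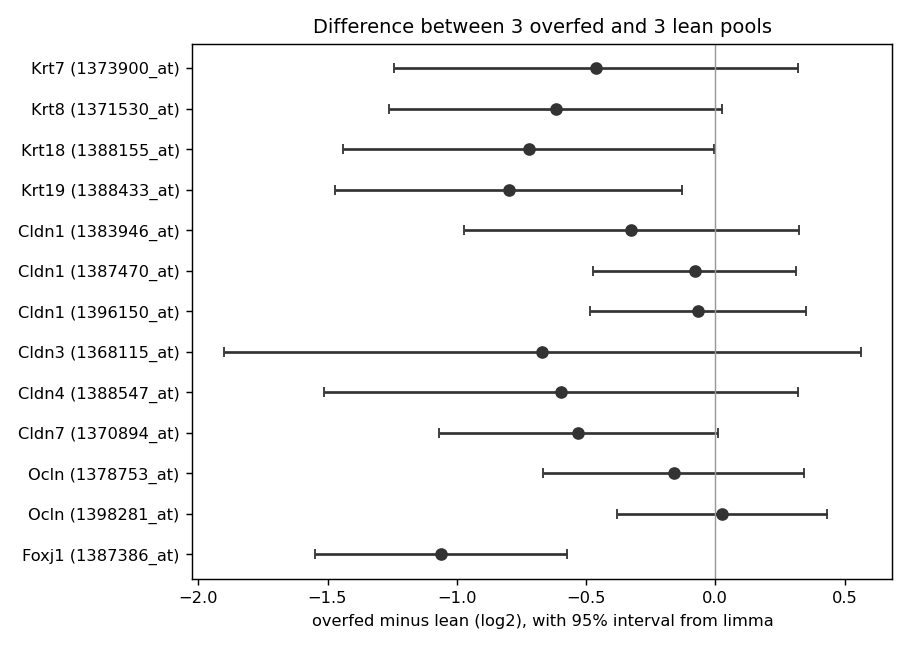
Difference between 3 overfed and 3 lean pools (horizontal axis, log2, overfed minus lean) with the 95% interval from limma for each of the 12 probe sets and Foxj1. The intervals of Krt18, Krt19 and Foxj1 lie below 0, and the widest, that of Cldn3, runs from -1.90 to 0.56.

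The order of the pools was largely shared by the members and cut across the diets. In all 12 probe sets the lowest overfed pool was overfed pool 3 and the lowest lean pool was lean pool 2, as in 10.9% of all probe sets. Overfed pool 3 was the lowest of all 6 pools in 10 of the 12. Overfed pool 1 lay above lean pool 2 in 10 of 12, and above lean pool 1 in 4 of 12, which were Cldn3, Cldn4 and both probe sets of Ocln. Averaged over the 9 genes, 1 probe set each, the values were 0.12, -0.13 and -0.71 in overfed pools 1 to 3, against 0.43, -0.23 and 0.57 in lean pools 1 to 3. Lean pool 2 thus lay below overfed pools 1 and 2 in the mean, and did so in 9 of 12 probe sets. Because lean pool 2 was the lowest lean pool of every member, leaving it out could only raise the members' lean means. The shares of all probe sets are not restricted in that way, so they are no like comparison for that fit. Without lean pool 2 the groups did not overlap in 6 of 12 members, all with overfed below lean, against 9.67% of all probe sets. In that fit 6 members were lower at an unadjusted limma p under 0.05, as were 4.03% of all probe sets. Without overfed pool 1 that p was reached by 5 members and 3% of all probe sets in this direction. Without overfed pool 3, lean pool 1 or lean pool 3 it was reached by 0 members, against 2.65%, 3.01% and 2.44% of all probe sets.

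The array controls and the whole table also set some of these pools apart. Over 18 hybridization control probe sets the array mean was -0.03, -0.05 and -0.24 in overfed pools 1 to 3, against 0.04, 0.04 and 0.51 in lean pools 1 to 3. For beta-actin the centred 3' probe set minus the centred 5' probe set was 0.36 in lean pool 3 and at most 0.061 elsewhere. It was lowest in overfed pool 3, at -0.062. For GAPDH this measure was highest in lean pool 3, at 0.17, and lowest in overfed pool 3, at -0.059. With centred values this measure only compares the pools with one another in RNA integrity and labelling, and gives no actual 3' to 5' ratio. The same measure for hexokinase was -0.02, -0.13 and 0.21 in overfed pools 1 to 3, against -0.26, 0.01 and 0.53 in lean pools 1 to 3, so that lean pool 3 was highest there too but overfed pool 3 was not lowest. In the hybridization controls overfed pool 3, lowest in the members, was lowest, and lean pool 3, the highest lean pool in 9 of 12 member probe sets, was highest. The part of array quality in the members' differences was not tested. The median member difference was -0.19 without overfed pool 3, -0.34 without lean pool 3, and -0.49 with both lean pool 3 and overfed pool 1 left out. Over all 31042 probe sets, the deviations of overfed pool 3 and lean pool 2 from their group means correlated with r = 0.40, as a description across probe sets, which are not independent replicates.

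The groups did not overlap in Foxj1, while they overlapped in 11 of the 12 member probe sets. Foxj1 had -0.72, -0.21 and -0.50 in overfed pools 1 to 3, against 0.58, 0.21 and 0.95 in lean pools 1 to 3. The difference of Foxj1 was -1.06 (SE 0.21, unadjusted p = 0.00131, adjusted p = 0.623 in limma). Within the lean pools Foxj1 ran from pool 3 over pool 1 to pool 2, and 9 of the 12 member probe sets had that order, against 18% of all probe sets. Within the overfed pools Foxj1 ran from pool 2 over pool 3 to pool 1, and 0 of 12 members had that order, against 17.8% of all probe sets. In 9 of 12 members the overfed pools ran from pool 1 over pool 2 to pool 3, and in the other 3, Krt18 and Cldn1 probe sets 1387470_at and 1396150_at, from pool 2 over pool 1 to pool 3. Overfed pool 1, the lowest pool for Foxj1, was therefore never the lowest overfed pool for a member.

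Over the 6 pools, Spearman's rho with Foxj1 ran from -0.029 in Ocln probe set 1398281_at to 0.83 in Krt18 and Krt19, given as a description of 6 arrays that form 2 diet groups. Each member's difference was set against that of Foxj1 by subtracting the values pool by pool. With 3 against 3 pools the exact permutation p cannot go below 0.1, so this test could pass no threshold of 0.05. In 5 of the 12 comparisons that smallest value was reached. The groups of Foxj1 do not themselves overlap, so a nearly flat probe set can reach it too. No conclusion on the members is drawn from this count, and the share of all probe sets that would reach it was not computed. Cldn7 differed less than Foxj1 by 0.53, Cldn1 probe sets 1387470_at and 1396150_at by 0.98 and 0.99, and Ocln probe sets 1378753_at and 1398281_at by 0.90 and 1.09, each with an exact two-sided permutation p = 0.1. After Benjamini-Hochberg adjustment over the 12 comparisons the smallest exact permutation p was 0.24. For Krt19 the gap was 0.26 (exact permutation p = 0.5) and for Cldn3 0.39 (exact permutation p = 0.7).

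**Figure D3:**
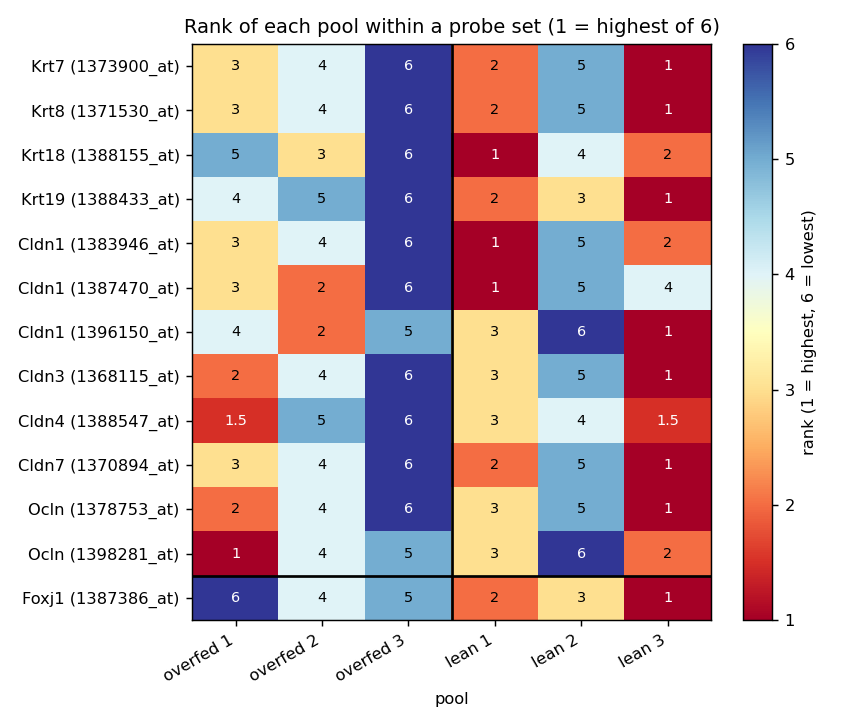
Rank of each pool among the 6 (1 is the highest value, 6 the lowest, 1.5 a tie) for each of the 12 member probe sets in rows, with Foxj1 below the line, overfed pools left and lean pools right. Overfed pool 3 has rank 6 in 10 of the 12 member rows, whereas rank 6 of Foxj1 is overfed pool 1.

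The members varied together to different degrees. Over the 9 genes there are 36 pairs, and their Pearson correlations over 6 pools ran from 0.50 to 0.99, with 28 of 36 above 0.7. The pair with the highest value was Krt19 and Cldn7 (r = 0.99), followed by Cldn3 and Cldn4 (r = 0.97) and by Krt7 and Cldn3 (r = 0.97). The filament partners Krt8 and Krt18, which lie beside each other on chromosome 7 with 0 protein-coding genes annotated between them, had r = 0.95. The lowest was that of Krt19 and Ocln (r = 0.50). These values describe 6 shared arrays and carry no test. The range over pools was 2.23 for Cldn3 and 0.59 for Ocln probe set 1398281_at, against a median range of 0.38 over all probe sets.

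The genes outside the members whose pool pattern was most like the members' mean, by Pearson correlation over 6 pools among 14217 named genes, were Edn1, Tspan1, Psmc3ip, Slc25a29, Rab25 and Emb (r = 0.99 each). Rab25, a small GTPase of epithelial recycling endosomes, had 0.21, -0.21 and -0.73 in overfed pools 1 to 3, against 0.35, -0.22 and 0.57 in lean pools 1 to 3. Tspan1, a tetraspanin of epithelia, had 0.12, -0.12 and -0.82 in overfed pools 1 to 3, against 0.51, -0.12 and 0.77 in lean pools 1 to 3. Both had the low overfed pool 3 and the low lean pool 2 of the keratins, and so had Edn1, Psmc3ip, Slc25a29 and Emb. All 6 genes were chosen for that likeness, so the shared low pools follow from the choice and are no separate result. Psmc3ip differed by -0.097, Slc25a29 by -0.25 and Emb by -0.55. The range of Psmc3ip over pools, 0.30, was below the median of 0.38 over all probe sets. Edn1, the vasoconstrictor peptide endothelin-1, differed by -0.28 and Tspan1 by -0.67, with limma adjusted p-values of 0.847 and 0.767.

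Other genes of the epithelial program had the members' direction. In the list of epithelial adhesion, splicing and transcription genes, 15 of 16 measured genes were lower on average in overfed ovaries. Over all probe sets 45.4% were lower, and the median of the list was -0.47. Of the 16, 5 had an unadjusted limma p under 0.05, all lower, against 3.36% of all probe sets in that direction. At the adjusted threshold 0 of the 16 passed. The lowest p-values belonged to the membrane protease St14 (-0.43, SE 0.14), the Ets factor Ehf (-0.57, SE 0.20), the protease inhibitor Spint2 (-0.35, SE 0.13) and E-cadherin, Cdh1 (-0.57, SE 0.22). Overfed pool 3 and lean pool 2 were the lowest of their groups in 12 of the 16 genes, against 10.9% of all probe sets. The Foxj1 order within lean pools appeared in 12 of 16, against 18% of all probe sets, and that within overfed pools in 0 of 16, against 17.8%. Epcam, named after its values were seen, had 0.54, -0.46 and -1.18 in overfed pools 1 to 3, against 0.46, -0.64 and 0.49 in lean pools 1 to 3. Its pools thus stood as those of Cldn3 did, with overfed pool 1 beside lean pools 1 and 3.

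Desmosomes anchor keratin filaments, and 12 of 13 measured desmosome and linker genes were lower on average in overfed ovaries (median -0.24). Over all probe sets 45.4% were lower. Desmoplakin, Dsp, which ties keratin to the junction, had -0.22, -0.41 and -0.57 in overfed pools 1 to 3, against 0.85, 0.22 and 1.24 in lean pools 1 to 3. Its groups did not overlap, and the difference of -1.17 (SE 0.25, unadjusted p = 0.00199 in limma) was larger in size than that of any measured keratin, a comparison that was not tested. The plakophilins Pkp1 (-0.80, SE 0.25) and Pkp2 (-0.30, SE 0.12) also had an unadjusted limma p under 0.05, and periplakin, Ppl, was at -0.39 (SE 0.20). None of the 13 passed the adjusted test.

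Of 25 other tight junction genes measured, 19 were lower on average in overfed ovaries and 6 higher, against 45.4% of all probe sets lower. Their median was -0.091. At an unadjusted limma p under 0.05 there were 3.36% of all probe sets lower in overfed ovaries, and 4 of the 25, all lower. These were the pore-forming claudin Cldn2 (-0.78, SE 0.19), Cldn22 (-0.78, SE 0.23), the tricellular junction protein Ildr1 (-0.36, SE 0.12) and Cldn10 (-0.91, SE 0.32). Cldn10, a claudin of ion-selective pores, had -0.84, 0.10 and -0.42 in overfed pools 1 to 3, against 0.76, -0.10 and 0.91 in lean pools 1 to 3. Its pools stood in the order of Foxj1 within each diet, which 2.63% of all probe sets and 0 of the 12 members did. Of the 25 genes 2 had that order, Cldn6 and Cldn10. Overfed pool 3 and lean pool 2 were the lowest of their groups in 7 of the 25, against 10.9% of all probe sets. Cldn5, the claudin of endothelium, was at 0.21 (SE 0.097), and its overfed pools all lay above its lean pools. With both lean pool 3 and overfed pool 1 left out, 13 of these 25 genes were lower in overfed ovaries. This was near the share of all probe sets in that setting, 45.4%.

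Other keratins, of stratified and of simple epithelia, numbered 17. Of these, 10 were lower on average in overfed ovaries and 7 higher, where 45.4% of all probe sets were lower. Their median was -0.043, and 0 had an unadjusted limma p under 0.05, against 6.67% of all probe sets in either direction. The lower count was 12 of 17 under quantile normalization, array median centring or array weights, and with 1 pool left out it ran from 8, when overfed pool 1 was dropped, to 13, when overfed pool 3 was. Krt15, a type I keratin of basal cells, was at -0.43 (SE 0.21), Krt86, a hair keratin, at -0.17, Krt23, of simple epithelia, at 0.17 and Krt10, of differentiating epidermis, at 0.12. Overfed pool 3 and lean pool 2 were both lowest in 1 of the 17, against 10.9% of all probe sets.

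**Figure D4:**
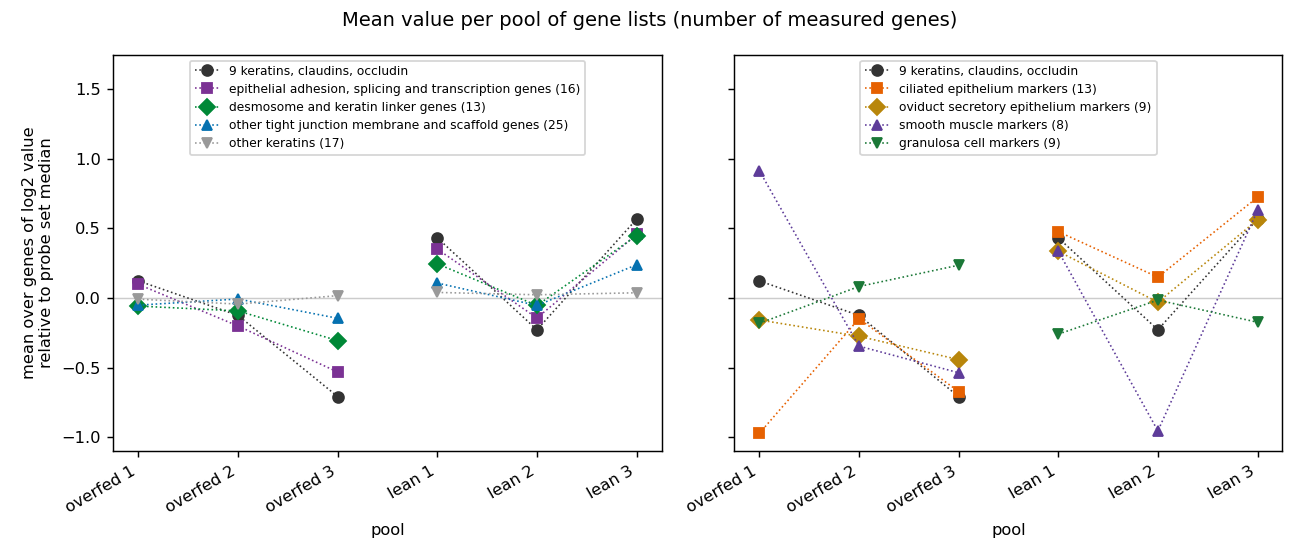
Mean log2 value relative to probe set medians (vertical axis) in each pool (horizontal axis, overfed left) over the genes of each list, with the 9 keratins, claudins and occludin as circles in both panels and dotted lines that only join symbols. Members, epithelial program and desmosome genes are lowest in overfed pool 3, ciliated markers are lowest in overfed pool 1 at -0.97, and smooth muscle markers are lowest in lean pool 2 at -0.96.

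Markers of other cell types were set beside the members, and 0 of their genes passed limma's adjusted threshold. Ciliated epithelium markers were lower on average in overfed ovaries in 12 of 13 genes (median -1.09), against 45.4% of all probe sets. At an unadjusted limma p under 0.05 there were 11 of 13, all lower, against 3.36% of all probe sets in that direction. Within both diets 10 of the 13 had the pool order of Foxj1, Foxj1 itself included, against 2.63% of all probe sets. The ciliated mean was -0.97, -0.15 and -0.67 in overfed pools 1 to 3, against 0.48, 0.15 and 0.72 in lean pools 1 to 3. Rsph1, of the ciliary radial spoke, was at -1.69 (SE 0.41). Oviduct secretory markers were lower in 8 of 9 genes (median -0.63), against 45.4% of all probe sets. The secretory means were -0.16, -0.27 and -0.44 in overfed pools 1 to 3, against 0.34, -0.03 and 0.56 in lean pools 1 to 3. Pax8, the Mullerian lineage factor, was at -0.77 (SE 0.32), the mucin Muc1 at -0.97 (SE 0.23), Lcn2 at -1.60 (SE 0.27) and Wfdc2 at -0.60 (SE 0.18).

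Smooth muscle markers shared the members' low pools. In 7 of these 8 genes overfed pool 3 and lean pool 2 were the lowest of their groups, against 10.9% of all probe sets. Their means were 0.92, -0.35 and -0.54 in overfed pools 1 to 3, against 0.34, -0.96 and 0.63 in lean pools 1 to 3. Myh11, smooth muscle myosin, was at 0.06 (SE 0.41) and Acta2 at -0.37 (SE 0.59) between the diets, with 0 of 8 genes at an unadjusted limma p under 0.05. Granulosa markers were higher on average in overfed ovaries in 7 of 9 genes (median 0.12), while 45.4% of all probe sets were lower. The granulosa means were -0.18, 0.08 and 0.24 in overfed pools 1 to 3, against -0.26, -0.02 and -0.17 in lean pools 1 to 3. Within each diet the granulosa mean was highest in overfed pool 3 and lean pool 2, where the members were lowest. The aromatase Cyp19a1 was at 0.45 (SE 0.33) and the inhibin alpha chain Inha at 0.11 (SE 0.19). The activin chain Inhba, at 0.64 (SE 0.20), was the 1 gene of 9 with an unadjusted limma p under 0.05. That p was reached by 6.67% of all probe sets in either direction.

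Mesothelial and ovarian surface markers were higher in 7 of 11 genes (median 0.055), while 45.4% of all probe sets were lower. The surface marker means were 0.28, 0.02 and 0.01 in overfed pools 1 to 3, against -0.08, -0.09 and 0.17 in lean pools 1 to 3. Lrrn4, a mesothelial membrane protein and the 1 gene of 11 with an unadjusted limma p under 0.05, was at 0.37 (SE 0.13). Over all probe sets 6.67% reached that p in either direction. Msln, mesothelin, was at 0.07 (SE 0.21) and the uroplakin Upk1b at 0.48 (SE 0.43, with 1.40 in overfed pool 1). Luteal, endothelial, adipocyte and leukocyte markers had median differences of -0.067, -0.0072, -0.20 and 0.073. In the same order, 8 of 9, 6 of 8, 7 of 8 and 2 of 8 genes were lower, against 45.4% of all probe sets. A one-sided direction count was therefore not particular to the epithelial lists. Of the luteal, endothelial and adipocyte markers 0 had an unadjusted limma p under 0.05, and Star, the luteal cholesterol carrier, was at -0.17, Adipoq of adipocytes at -0.26, and Pecam1 and Vwf of endothelium at -0.12 and 0.23. Of 8 leukocyte markers 2 were higher at that p, Ptprc (0.28) and Csf1r (0.24), and the B cell marker Ms4a1 was lower (-0.33, SE 0.081). Cd79b, also a B cell marker, went the other way, at 0.12 (SE 0.11). The part of oviduct, smooth muscle or granulosa tissue in the members' values was not tested.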

How the data were processed

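RNA of 6 ovary pools was measured on Affymetrix arrays. Per the labels' protocols, RNA was isolated with TRI reagent, purified on RNeasy columns with DNase and biotin-labelled by an Affymetrix protocol. GCOS is named in the submitters' processing notes. The summary method, the normalization across arrays and the log base are each not given in the sources used here. As deposited by the authors, the values were centred log values, read here as log2, with a median of 0 within 1e-06 in all 31099 rows. If they are natural logarithms, the folds are too small and the test results stay.

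Gene names came from the platform annotation. After 57 control probe sets were left out, 31042 were tested: 20826 with 1 gene (14217 genes), 436 with several and 9780 unnamed. The comparison of overfed to lean pools was fitted with limma 3.58.1 (R 4.3.3; lmFit, eBayes, no covariate, two-sided), with Benjamini-Hochberg adjustment over all probe sets at 0.05. Lists were described by counts. Each gene was represented by 1 probe set: an NM accession first, then the unique type, then the lowest identifier. Cd24, Cldn5 and Foxj1 stand in more than 1 list. The fit was tested on simulated data. Of 50 planted 1.5-fold changes it called 12, and of 50 planted 2-fold changes 41, with 3 false calls each time. In the measured pools, by contrast, 0 of 13 ciliated markers were called, although their median difference was -1.09. Foxj1 was among them, at -1.06 (adjusted p = 0.623 in limma). The simulated counts therefore give no detection rate for these pools. The absence of calls does not show that 2-fold changes were absent. Epcam lies outside the rule for named genes.

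Members and lists were chosen with earlier results of these data known. Named were the 9 members, Foxj1, the 4 genes of lowest p per list, the first 2 of each cell type list and the 6 nearest genes by correlation, and some of these are given only as counts.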

Additional observations from a re-analysis of the deposited data

How the results depend on the processing

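Under the 15 alternatives, adjusted limma calls among the members stayed at 0, and calls over all probe sets were 0 except 62 when the 50% of smaller SD were left out. Members lower at an unadjusted limma p under 0.05 numbered 2, against 3.36% of all probe sets. With that filter they numbered 4, against 4.31% of the probe sets kept. Quantile normalization, a robust prior and array weights gave 1 each, against 3.24% to 3.6% of all probe sets. The gene mean and 1 probe set per gene gave 1 each, against 4.42% and 4.47% of all genes. Leaving out lean pool 3 with overfed pool 1 gave 1, against 2.42% of all probe sets. Leaving out 1 pool gave 0 to 6, against 2.44% to 4.03%. The 6 came without lean pool 2, the lowest lean pool of every member. The pool number as a replicate block gave 1, against 2.95%. Deviations of same-numbered pools from their group means correlated with r of 0.097, 0.17 and -0.28. Overfed pools 1 and 3 correlated best with lean pools 3 and 2, and overfed pool 2 with lean pool 2. These correlations cannot show whether pools were paired by design. Non-overlapping members, 1 in all pools, numbered 1 to 6 with 1 pool left out, against 8.94% to 10.3% of all probe sets. Here too the 6 came without lean pool 2. Without lean pool 3 and overfed pool 1 the non-overlapping members numbered 2, against 14%. The median difference was -0.75 to -0.19 with 1 pool left out. Small differences changed sign. With 1 pool left out, Cldn1 1387470_at ran from -0.20 to 0.075, Cldn1 1396150_at from -0.25 to 0.078 and Ocln 1398281_at from -0.14 to 0.13. Cldn1 1396150_at was 0.013 with array weights and 0.10 without lean pool 3 and overfed pool 1, where Ocln 1398281_at was -0.0094. The mean of both Ocln probe sets was -0.067. The cause was not tested. The pool order counts and the epithelial lists' direction counts, tried under alternatives chosen after seeing the data, stayed within 1.5 times. Within that bound, the other tight junction genes lower in overfed ovaries fell from 19 of 25 to 13 of 25. This was without lean pool 3 and overfed pool 1, where 45.4% of all probe sets were lower. The Foxj1 order within lean pools was found in 7 of 12 members under quantile normalization. Signal over background is unknown, since levels were removed by centring, and the number of pools limits the precision.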
